A study of Mus musculus with 12 samples.

Results

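The genes that flank Psen2 on mouse chromosome 1 were followed in hippocampal RNA of conditional double knockout mice in which Psen2 is targeted. The set holds 42 named genes from Fmn2 to Dusp10, out of 21878 genes with a value in each library. It was chosen with earlier results of these data known and does not hold every gene of the interval. Of the 42, 41 reached 0.5 FPKM (fragments per unit of transcript length and of library size) in at least 3 libraries and were tested. Exo1, an exonuclease of DNA mismatch repair, did not, with 0.0096 to 0.054 FPKM. Another 48 genes that start in about the same interval are not in the set. Of those 48, 12 were tested and 17 had 0 FPKM in all libraries. The groups were the conditional double knockout mice (DKO) killed at 9 a.m. (Day DKO) or 9 p.m. (Night DKO), and wild type mice (WT) killed at the same hours (Day WT and Night WT), with 3 libraries each. All mice received pentobarbital at 30 mg/kg. The labels name neither the strain and age nor the promoter that drives the recombinase, and do not say whether the libraries of a group came from separate mice. The p-values therefore reflect spread among libraries that may be technical.

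Psen2 codes for a catalytic subunit of gamma-secretase, the membrane protease that cuts Notch receptors and the amyloid precursor protein. A targeted allele is made in embryonic stem cells of a given strain, and DNA of that strain stays on both sides of the target for as long as breeding has not exchanged it, so genes there can differ between carriers and controls by strain sequence alone. The flanking genes have no shared function: they include regulators of actin, chromatin proteins, components of the secretory pathway and enzymes of mitochondria. The tables hold expression values and no sequence variants, so which strain's DNA surrounds Psen2 in these mice was not tested.

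The promoters of the 4 flanking genes called in any comparison below are shown as RefSeq gives them on GRCm38.p6, from 250 bases before to 50 bases after the annotated start. The windows are chr1:174501575-174501874 on the plus strand for Fmn2, chr1:180568641-180568940 on the plus strand for Parp1, chr1:181017520-181017819 on the minus strand for Ephx1 and chr1:183296959-183297258 on the minus strand for Brox, the first of its 2 entries. Capitals mark the E-box CACGTG, the site bound by the circadian factors CLOCK and BMAL1 among others.
Fmn2: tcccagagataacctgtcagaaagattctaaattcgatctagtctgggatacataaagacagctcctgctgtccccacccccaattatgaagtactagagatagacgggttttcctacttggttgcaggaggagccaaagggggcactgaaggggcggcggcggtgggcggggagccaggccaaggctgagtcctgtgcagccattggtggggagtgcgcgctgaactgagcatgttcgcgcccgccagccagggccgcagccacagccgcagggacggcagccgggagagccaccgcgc
Parp1: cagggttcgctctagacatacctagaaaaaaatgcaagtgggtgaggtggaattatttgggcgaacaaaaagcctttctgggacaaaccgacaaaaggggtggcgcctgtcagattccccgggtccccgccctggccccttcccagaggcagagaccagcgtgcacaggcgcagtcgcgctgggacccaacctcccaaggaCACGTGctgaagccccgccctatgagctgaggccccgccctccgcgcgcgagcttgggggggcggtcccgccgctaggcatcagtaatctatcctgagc
Ephx1: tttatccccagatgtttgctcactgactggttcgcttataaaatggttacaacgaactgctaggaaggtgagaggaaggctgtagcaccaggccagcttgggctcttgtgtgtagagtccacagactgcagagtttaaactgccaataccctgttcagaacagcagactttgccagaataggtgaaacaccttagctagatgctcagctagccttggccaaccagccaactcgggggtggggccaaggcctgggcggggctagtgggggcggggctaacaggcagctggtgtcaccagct
Brox: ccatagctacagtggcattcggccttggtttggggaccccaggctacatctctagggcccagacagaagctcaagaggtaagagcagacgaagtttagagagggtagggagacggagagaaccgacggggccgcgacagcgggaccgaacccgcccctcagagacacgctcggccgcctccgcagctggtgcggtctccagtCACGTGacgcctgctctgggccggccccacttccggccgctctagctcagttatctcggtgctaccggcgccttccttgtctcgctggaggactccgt
The Parp1 and Brox windows each hold 1 E-box, and the Fmn2 and Ephx1 windows hold none. The second Brox entry, not shown, also holds none. RefSeq promoters were matched for 36 of the 42 genes (45 entries), and 8 of the 45 (17.8%) held an E-box on either strand, against 2349 of 32851 promoters in all (7.15%). Those 8 belong to Rgs7, Parp1, Sde2, Wdr26, Cnih3, Degs1, Brox and Aida and hold 7 distinct sites, because the Brox and Aida windows overlap and share theirs. The flanking genes' promoters had a median GC content of 62.3%, against 52.7% for all promoters. The D-box TTATGTAA was in 0 of the 45, against 0.938% of all promoters, and the palindromic glucocorticoid response element was in 0 of the 45, against 0.00913% of all. A match of letters is a description of the window and not a binding site.

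Summed FPKM ranged over the libraries between 151059 and 175692, and relative depth, from the steps between low values, was 0.9 to 1.05 with Day WT replicate 1 as the unit. Read numbers are unknown. In 1 of the 12 libraries, Night WT replicate 1, the Y-linked genes summed to 0.0308 FPKM, against 14.1 to 18.1 in the other 11, so it differs from them in sex. All 6 markers of hippocampal excitatory neurons were detected, at a summed 371 to 461 FPKM. With the genotype difference averaged over both times, 4 of 6 microglia markers and 1 of 6 astrocyte markers were called higher in DKO, 1 of 6 excitatory neuron markers was called higher, and 3 of 6 endothelial and mural, 3 of 5 blood and 1 of 6 oligodendrocyte markers were called lower. None of the 8 choroid plexus markers was called. In these bulk samples, fewer cells of a type and less RNA per cell cannot be told apart.

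Psen2 was lower in every DKO library. It had 0.52, 0.38 and 0.28 FPKM in Day DKO libraries, against 1.67, 1.47 and 2.87 FPKM in Day WT libraries, and 0.49, 0.35 and 0.59 FPKM in Night DKO libraries, against 3.55, 2.94 and 3.64 FPKM in Night WT libraries. The difference averaged over both times was -1.32 on the log2(FPKM + 1) scale (adjusted p = 9.34e-05, limma). A value summed over a whole gene does not show which exons were removed.

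The share of the genes around Psen2 that passed the test for a genotype difference was near that of all genes. Of the 41 tested, 1 was called in the genotype comparison averaged over both times (2.44%), Fmn2, which was lower in DKO, beside 1.88% of all 12689 genes called in either direction and 0.875% called lower. By day 0 of 41 were called (1.18% of all genes) and 5 had an unadjusted p under 0.05 (12.2%, against 17.0% of all). At night 0 were called (0.0236% of all genes) and 6 had an unadjusted p under 0.05 (14.6%, against 9.18% of all). The averaged differences ran from -0.27 to 0.15 on the log2(FPKM + 1) scale, with 20 genes higher and 21 lower in DKO (15 higher with median-of-ratios scaling and 17 with quantile normalization). Their median size was 0.0497, against 0.0566 over all genes tested. An unadjusted p under 0.05 was found for 9 of the 41 (22.0%), against 16.2% of all genes.

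**Figure D1:**
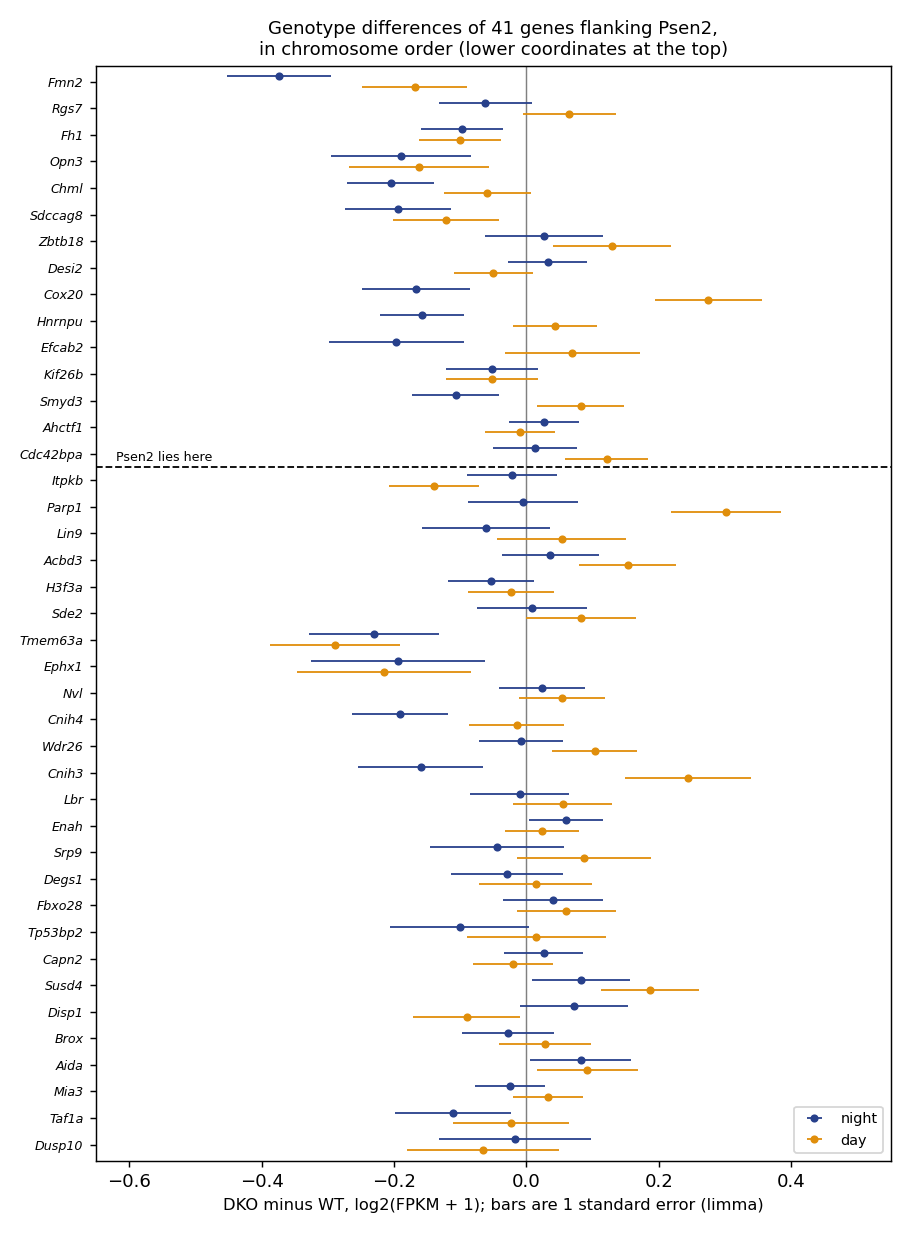
Difference between DKO and WT for each of the 41 tested genes, ordered by position along chromosome 1, on the log2(FPKM + 1) scale, at night and by day; points are limma estimates and bars are standard errors (n = 3 libraries a group). Fmn2, Sdccag8 and Tmem63a lie below 0 at both times, as do Ephx1, Opn3 and others, and Cox20, Parp1 and Cnih3 lie above 0.2 by day.

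Fmn2, a formin that nucleates actin filaments, is the gene of the set farthest from Psen2, 5.4 Mb to its lower-coordinate side (chromosome 1, 174501752 to 174822729). It had 4.52, 3.78 and 4.43 FPKM in Day DKO libraries, against 4.56, 4.71 and 5.41 FPKM in Day WT libraries. At night it had 3.51, 4.12 and 3.62 FPKM in DKO libraries, against 5.11, 5.46 and 4.88 FPKM in WT libraries. The DKO libraries lay below the WT libraries at both times, narrowly by day and with a wider gap at night. The averaged difference was -0.27 (SE 0.056, adjusted p = 0.0292, limma), and the mean FPKM in DKO was 0.796 times that in WT. The difference was -0.17 by day (adjusted p = 0.297) and -0.37 at night (adjusted p = 0.194), neither past the threshold. The averaged call was lost without any 1 of 9 libraries, with adjusted p = 0.0602 and 0.0518 without Day DKO replicates 2 and 3, 0.0578 and 0.0537 without Day WT replicates 2 and 3, 0.0535 and 0.0695 without Night DKO replicates 1 and 3, and 0.0719, 0.0541 and 0.0505 without Night WT replicates 1, 2 and 3. With the choroid plexus score as a covariate the difference was also -0.27, and the call was lost (adjusted p = 0.0826). Summed choroid plexus markers ran from 60.6 to 1766 FPKM in Day DKO, 1095 to 2718 FPKM in Day WT, 1875 to 2967 FPKM in Night DKO and 1336 to 3098 FPKM in Night WT.

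Among the other cytoskeletal, signalling and synaptic genes none was called, and the group of 12 had a median averaged difference of -0.02. Susd4, a sushi-domain inhibitor of complement, was at the upper end. It had 18.8, 21.0 and 21.9 FPKM in Day DKO, against 16.8, 18.6 and 18.4 FPKM in Day WT, and 22.8, 21.1 and 20.7 FPKM in Night DKO, against 18.8, 22.1 and 19.9 FPKM in Night WT. The groups did not overlap by day and overlapped at night, and the averaged difference of 0.13 missed the threshold (adjusted p = 0.216). Opn3, encephalopsin, is among the lowest expressed, with 0.41, 0.062 and 0.35 FPKM in Day DKO and 0.39, 0.46 and 0.40 FPKM in Day WT, and with 0.41, 0.28 and 0.60 FPKM in Night DKO and 0.60, 0.66 and 0.61 FPKM in Night WT. Its groups overlapped at both times, and its averaged difference was -0.18 (adjusted p = 0.264). Rgs7, which accelerates GTP hydrolysis by G proteins of neurons, differed by 0.001 on average (adjusted p = 0.992), with 6.94 to 8.59 FPKM over the 12 libraries. Cnih3, an auxiliary protein of AMPA receptors, was 0.24 higher in DKO by day (adjusted p = 0.219) and 0.16 lower at night, with no call in either. Of the others, Enah, a regulator of actin filament growth, was at 6.96 to 8.06 FPKM with an averaged difference of 0.04 (adjusted p = 0.645). Kif26b, a kinesin family protein, was at 1.25 to 1.92 FPKM with -0.05 (adjusted p = 0.655). Dusp10, a phosphatase of stress-activated MAP kinases and the last gene of the set, was at 0.868 to 1.54 FPKM with -0.04 (adjusted p = 0.853). Tp53bp2, a binding partner of p53, was at 2.93 to 4.69 FPKM with -0.04 (adjusted p = 0.829).

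None of the 8 genes of membrane traffic and secretion was called, with a median averaged difference of -0.004. Tmem63a, a mechanically gated cation channel of the plasma membrane and lysosome, had the lowest value. It had 3.34, 3.85 and 2.96 FPKM in Day DKO, against 4.13, 5.08 and 3.87 FPKM in Day WT, and 3.96, 3.37 and 3.44 FPKM in Night DKO, against 4.77, 3.98 and 4.40 FPKM in Night WT. DKO libraries lay narrowly below WT libraries at both times. The highest DKO and lowest WT values were 3.847 and 3.867 FPKM by day, and 3.960 and 3.984 FPKM at night. The averaged difference of -0.26 missed the threshold (SE 0.069, adjusted p = 0.075). Tmem63a is expressed in oligodendrocytes, whose 6 markers summed to 239 to 298 FPKM in Day DKO and 306 to 326.5 FPKM in Day WT, and to 268.5 to 344 FPKM in Night DKO and 338 to 395 FPKM in Night WT. The part of these cells in the Tmem63a values was not tested. Chml, a Rab escort protein, had 0.97, 1.02 and 1.10 FPKM in Day DKO, against 1.18, 1.16 and 1.01 FPKM in Day WT, and 0.91, 1.02 and 1.17 FPKM in Night DKO, against 1.36, 1.37 and 1.29 FPKM in Night WT. Its DKO and WT libraries were apart at night only, and its averaged difference was -0.13 (adjusted p = 0.178). Chml lies wholly within the Opn3 gene on the same strand, so reads of the pair may not be separable. Acbd3, a Golgi scaffold, was the highest of the group at 0.09 (adjusted p = 0.391), with 5.46 ± 0.169 FPKM in Day DKO and 4.82 ± 0.408 FPKM in Day WT, and 5.79 ± 0.262 FPKM in Night DKO and 5.63 ± 0.61 FPKM in Night WT (SD, n = 3 each). Cnih4, a cargo receptor of the early secretory pathway, averaged -0.10 (adjusted p = 0.34). Its Night DKO libraries, 5.08 ± 0.224 FPKM, lay below its Night WT libraries, 5.93 ± 0.0517 FPKM (SD, n = 3 each), a night difference of -0.19 that was not called (adjusted p = 0.446). Srp9, a subunit of the signal recognition particle, was at 22.97 to 30.29 FPKM and differed by 0.02 (adjusted p = 0.92). Mia3, which loads collagens into transport carriers, was at 10.12 to 11.71 FPKM and differed by 0.004 (adjusted p = 0.974). Disp1, which releases Hedgehog ligands, was near the limit of the filter at 0.338 to 0.616 FPKM.

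Among the 12 genes of the nucleus, chromatin and transcription, 0 of the 11 tested were called, with a median averaged difference of 0.01 and values from -0.07 for Taf1a, a subunit of the RNA polymerase I factor, to 0.15 for Parp1. H3f3a, which codes for a replacement variant of histone H3, had the highest level of the set, 74.0 to 87.1 FPKM, and Zbtb18, a transcriptional repressor of cortical neuron development, had 44.0 to 59.8 FPKM. H3f3a has near-identical copies elsewhere in the genome, so its value is uncertain. Hnrnpu, a nuclear RNA-binding protein, had 25.6 ± 1.57 FPKM in Night DKO and 28.6 ± 1.13 FPKM in Night WT (SD, n = 3 each). The Hnrnpu libraries did not overlap at night, but the difference of -0.16 was not called (adjusted p = 0.472), and by day it was 0.04 (adjusted p = 0.766). Hnrnpu and Cox20 lie on opposite strands and overlap by 1586 bases. Lbr, the lamin B receptor, Nvl, a nuclear ATPase of ribosome assembly, and Sde2, which acts in genome stability and splicing, had averaged differences of 0.02, 0.04 and 0.05 in that order, none called. The 8 genes of metabolism and proteolysis had 0 calls, with averaged differences from -0.20 for Ephx1 to 0.05 for Cox20. Degs1, the desaturase that makes ceramide, differed by -0.01 (adjusted p = 0.966), and Capn2, the large subunit of a calpain protease, by 0.003 (adjusted p = 0.981). Wdr26 and Fbxo28, both components of ubiquitin ligases, and Desi2, a small peptidase-family protein, had averaged differences of 0.05, 0.05 and -0.01 in that order, none called. Fh1, fumarate hydratase of the citric acid cycle, had 17.9, 19.3 and 20.2 FPKM in Day DKO, against 19.6, 20.7 and 21.3 FPKM in Day WT, and 22.2, 21.8 and 19.998 FPKM in Night DKO, against 23.2, 21.8 and 23.7 FPKM in Night WT. The Fh1 groups overlapped, and the averaged difference was -0.10 (adjusted p = 0.287). Of the 2 genes of the cilium, Sdccag8, a centrosome protein, had 1.72, 1.88 and 1.70 FPKM in Day DKO, against 1.99, 2.06 and 1.99 FPKM in Day WT. At night it had 1.82, 1.39 and 2.06 FPKM in DKO, against 2.07, 2.09 and 2.27 FPKM in WT. The Sdccag8 DKO libraries were below the WT libraries at both times, narrowly at night (2.056 against 2.066 FPKM). The averaged difference of -0.16 missed the threshold (adjusted p = 0.186). Efcab2 had an averaged difference of -0.06 (adjusted p = 0.71).

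Non-overlap at both times in the same direction was met by 3 of the 41 (7.32%), Fmn2, Sdccag8 and Tmem63a, all lower in DKO, beside 2.82% of all genes in either direction, 1.25% with DKO lower and 1.57% with DKO higher. The count was 5 without Night WT replicate 2 and 1 with median-of-ratios scaling. Leaving a library out can only keep or raise such a count, for the flanking genes as for all genes. Shares of all genes in these settings are not given here. By day 11 of 41 (26.8%) did not overlap, beside 19.6% of all genes. At night 10 of 41 (24.4%) did not overlap, beside 15.2% of all genes. The night and day differences had the same sign in 22 of 41 (53.7%), beside 55.2% of all genes.

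**Figure D2:**
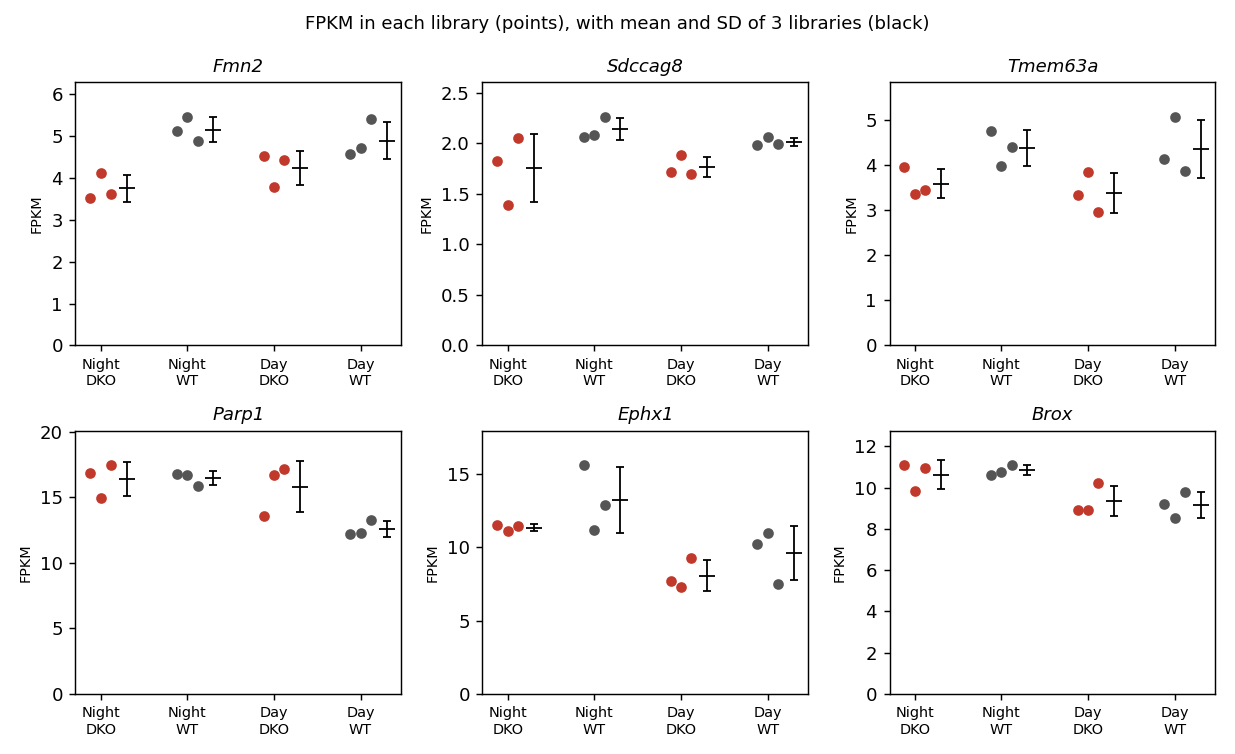
FPKM in each of the 12 libraries for Fmn2, Sdccag8, Tmem63a, Parp1, Ephx1 and Brox, by group; red (DKO) and grey (WT) points are libraries, black bars are the group mean and SD (n = 3), and each axis starts at 0. The DKO libraries of the top 3 genes lie below the WT libraries at both times, the Day WT libraries of Parp1 lie below its Night WT libraries, and the night libraries of Ephx1 lie above its day libraries within each genotype.

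None of the set's genes nearest to Psen2, 3 on each side, was called for genotype. Tested genes outside the set lie as near, among them Adck3 at -0.031 Mb (negative for lower coordinates) and Stum at 0.169 Mb. The averaged differences of Adck3 and Stum were 0.07 (adjusted p = 0.563) and 0.16 (adjusted p = 0.261, limma), neither called. Cdc42bpa, a kinase acting on actomyosin, lies 0.061 Mb away on the lower-coordinate side. It had 16.2, 14.1 and 15.6 FPKM in Day DKO, against 13.9, 14.1 and 13.9 FPKM in Day WT, and 14.9, 13.6 and 15.1 FPKM in Night DKO, against 14.9, 14.6 and 13.6 FPKM in Night WT, an averaged difference of 0.07 (adjusted p = 0.491). Itpkb, an inositol trisphosphate kinase 0.067 Mb away on the other side, had 4.44, 4.13 and 4.16 FPKM in Day DKO, against 4.78, 4.96 and 4.59 FPKM in Day WT, and 4.67, 3.87 and 4.08 FPKM in Night DKO, against 4.54, 3.96 and 4.35 FPKM in Night WT, an averaged difference of -0.08 (adjusted p = 0.437). By day the Cdc42bpa libraries were narrowly higher and the Itpkb libraries lower in DKO, and at night both overlapped. Ahctf1, a nucleoporin, averaged 5.92 ± 0.043 FPKM in Day DKO and 5.97 ± 0.0602 FPKM in Day WT, and 6.53 ± 0.362 FPKM in Night DKO and 6.39 ± 0.22 FPKM in Night WT (SD, n = 3 each), a difference of 0.01 (adjusted p = 0.945). Smyd3, a lysine methyltransferase, had 1.82, 1.55 and 1.72 FPKM in Day DKO, against 1.50, 1.55 and 1.58 FPKM in Day WT, and 1.69, 1.68 and 1.52 FPKM in Night DKO, against 1.73, 2.04 and 1.72 FPKM in Night WT, a difference of -0.01 (adjusted p = 0.933). Lin9, a subunit of the DREAM complex that represses cell cycle genes, had 0.38, 0.67 and 0.78 FPKM in Day DKO, against 0.41, 0.59 and 0.64 FPKM in Day WT, and 0.62, 0.65 and 0.72 FPKM in Night DKO, against 0.68, 0.66 and 0.87 FPKM in Night WT, a difference of -0.004 (adjusted p = 0.986). On the higher-coordinate side Parp1, 0.305 Mb away, lies between Itpkb and Lin9 and is described with the night values.

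By distance from Psen2, described with no test, the median size of the difference was highest in the outermost genes. The 14 genes within 1 Mb had a median averaged difference of 0.002 and a median size of 0.0572, the 16 from 1 to 3 Mb had 0.01 and 0.0426, and the 11 farther out had -0.07 and 0.087. An unadjusted p under 0.05 (limma) was found for 3, 1 and 5 of these in that order, beside 16.2% of all genes. The 5 farther out, Fmn2, Fh1, Opn3, Chml and Sdccag8, were on the lower-coordinate side and lower in DKO. The 15 tested on the lower-coordinate side had a median of -0.05, with 5 higher and 10 lower in DKO. The 26 on the higher-coordinate side had a median of 0.003, with 15 higher and 11 lower. The 12 further genes tested in the same interval of chromosome 1 that are not in the set had 0 calls and a median size of 0.0545.

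Besides Fmn2, called genes appeared just outside the set, on the lower-coordinate side. Counted by distance from Psen2, 0 of the 55 genes within 5 Mb were called in the averaged genotype comparison, but 10 of the 46 from 5 to 10 Mb on the lower-coordinate side were (21.7%), Fmn2 among them, 3 higher and 7 lower in DKO, beside 1.88% of all genes. On the higher-coordinate side 0 of the 15 at that distance were called. From 10 to 20 Mb on both sides, 1 of 79 was called (1.27%). The distances were chosen after the data were seen, and so were the names that follow. From Ddr2 to Kcnj10, a stretch of 2.4 Mb, 10 of 40 tested genes were called, and none of the 7 between Kcnj10 and Fmn2 was. Of those 7, 3 had an unadjusted p under 0.05 (limma). Kcnj9, a potassium channel subunit of neurons, averaged 8.69 ± 0.845 FPKM in Day DKO and 13.1 ± 0.364 FPKM in Day WT, and 10.3 ± 1.46 FPKM in Night DKO and 13.5 ± 1.97 FPKM in Night WT (SD, n = 3 each), a difference of -0.45 (adjusted p = 0.0146). Kcnj10, the glial potassium channel next to it, averaged 7.67 ± 1.03 FPKM in Day DKO and 5.54 ± 0.37 FPKM in Day WT, and 6.45 ± 0.7 FPKM in Night DKO and 4.21 ± 0.163 FPKM in Night WT (SD, n = 3 each), a difference of 0.46 (adjusted p = 0.00721). The count of 10 was 6, 4 and 3 without Day DKO replicates 1, 2 and 3, 11, 2 and 6 without Day WT replicates 1, 2 and 3, 8, 4 and 2 without Night DKO replicates 1, 2 and 3, and 2, 6 and 4 without Night WT replicates 1, 2 and 3. What lies behind this count was not tested.

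**Figure D3:**
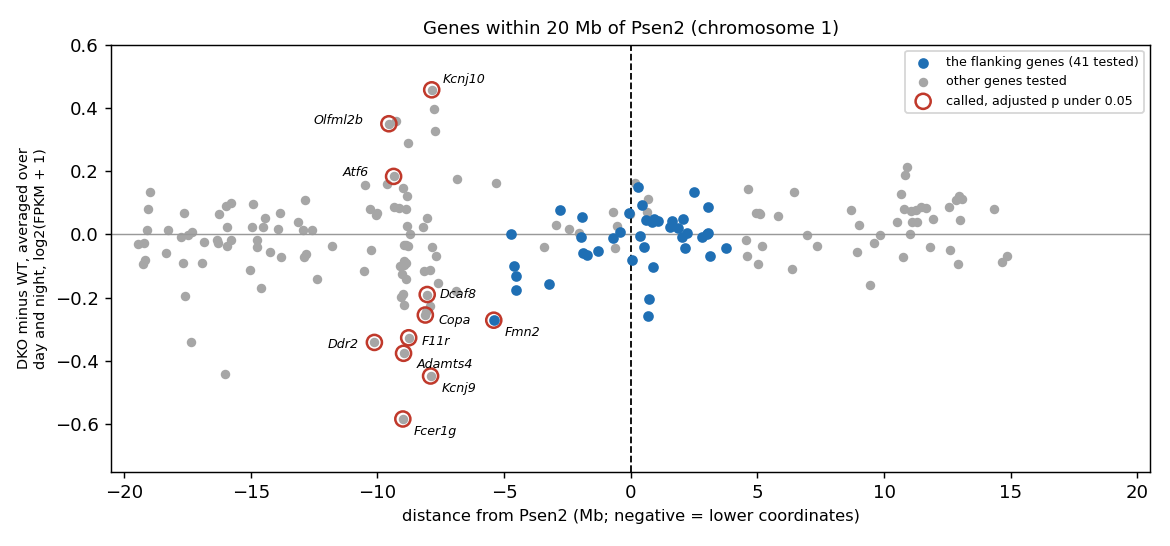
Difference between DKO and WT averaged over both times, on the log2(FPKM + 1) scale, against distance in Mb from Psen2 for each gene tested within 20 Mb; blue points are the flanking genes, grey points other genes, and red rings genes called at an adjusted p under 0.05. The rings near Psen2 lie between 5 and 10 Mb on the lower-coordinate side with 1 a little beyond, and no gene within 5 Mb of it is ringed.

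No interaction of genotype and time was called: 0 of the 41 were called for the interaction, as were 0.0% of all genes (0 of 12689, limma), with 1099 genes and 4 of the 41 at an unadjusted p under 0.05. The smallest adjusted p among the 41 was 0.463, for Cox20, an assembly factor of cytochrome c oxidase, which was 0.28 higher in DKO by day (adjusted p = 0.123) and 0.17 lower at night (adjusted p = 0.572). Cox20 had 8.66, 9.22 and 7.81 FPKM in Night DKO, against 9.59, 9.55 and 10.01 FPKM in Night WT, and 10.52, 8.14 and 9.37 FPKM in Day DKO, against 7.74, 7.73 and 7.08 FPKM in Day WT. The genotypes did not overlap at either time, and the order of the genotypes was opposite at night and by day. The next was Cnih3, with an interaction of -0.40 (adjusted p = 0.522).

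Between night and day, the share of the genes that was higher at night exceeded that of all genes more in WT than in DKO, a difference that was not tested. In DKO, 25 of 41 were higher at night (61.0%), against 58.7% of all genes, and the median difference was 0.04, against 0.02 for all. In WT, 34 of 41 were higher at night (82.9%), against 72.1% of all genes, and the median difference was 0.12, against 0.07 for all. With median-of-ratios scaling 27 of 41 were higher in WT (65.9%), against 50.9% of all genes, and with quantile normalization 25 of 41 (61.0%), against 50.6%. In DKO these scalings gave 23 of 41 (56.1%), against 50.9%, and 22 of 41 (53.7%), against 46.9%, in that order. The contrast between WT and DKO was thus smaller with quantile normalization. In DKO 0 of 41 were called by limma, beside 0.299% of all genes in either direction and 0.181% higher, with 7 of 41 and 1915 of all genes at an unadjusted p under 0.05. In WT 1 of 41 was called (2.44%), beside 1.67% of all genes in either direction and 1.51% higher. An unadjusted p under 0.05 was found there for 17 of 41 (41.5%), against 22.3% of all genes. Averaged over genotypes, 2 of 41 were called (4.88%), beside 6.07% of all genes in either direction and 5.19% higher. The unadjusted count in that comparison was 15 of 41 (36.6%), against 26.2% of all genes. All 3 calls were higher at night. With median-of-ratios scaling the calls averaged over genotypes were Ephx1, higher at 0.39 (adjusted p = 0.0463), and Kif26b, lower at -0.20 (adjusted p = 0.0456), and quantile normalization also called this pair. Over all genes the averaged calls, 659 higher and 111 lower, were 209 higher and 285 lower with median-of-ratios scaling. The WT calls, 192 higher and 20 lower, were 20 higher and 32 lower with that scaling, and their count of 212 was 1 without Day WT replicate 1 or without any 1 of the Night WT libraries.

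Parp1, a sensor of DNA breaks that builds poly(ADP-ribose), was the call in WT. It had 16.8, 16.7 and 15.8 FPKM in Night WT, against 12.2, 12.3 and 13.3 FPKM in Day WT, and 16.8, 14.9 and 17.5 FPKM in Night DKO, against 13.6, 16.7 and 17.2 FPKM in Day DKO. All Night WT libraries exceeded all Day WT libraries, and the DKO groups overlapped. The night difference was 0.05 in DKO (adjusted p = 0.816) and 0.36 in WT (SE 0.083, adjusted p = 0.0497), and the interaction missed the threshold (-0.31, adjusted p = 0.561). The WT call was lost without any 1 library other than Day DKO replicate 1, with adjusted p up to 0.171. By day Parp1 was 0.30 higher in DKO than in WT (adjusted p = 0.102), and without Day DKO replicate 1 that difference was called (0.40, adjusted p = 0.0259).

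Ephx1, microsomal epoxide hydrolase, and Brox, a protein of the ESCRT pathway, were higher at night when averaged over genotypes. Ephx1 had 11.5, 11.1 and 11.4 FPKM in Night DKO, against 7.69, 7.28 and 9.26 FPKM in Day DKO, and 15.6, 11.2 and 12.9 FPKM in Night WT, against 10.3, 11.02 and 7.52 FPKM in Day WT. Night libraries exceeded day libraries within each genotype, and the averaged difference was 0.44 (SE 0.092, adjusted p = 0.0209). With the choroid plexus score as a covariate the Ephx1 difference was 0.28 (adjusted p = 0.0631), and the choroid plexus markers had a median night difference of 0.88. Brox had 11.1, 9.81 and 10.96 FPKM in Night DKO, against 8.93, 8.93 and 10.2 FPKM in Day DKO, and 10.6, 10.8 and 11.1 FPKM in Night WT, against 9.18, 8.51 and 9.77 FPKM in Day WT. Its groups overlapped in DKO and not in WT, and the averaged difference was 0.19 (SE 0.049, adjusted p = 0.0376). The Brox call was lost without any 1 library other than Day DKO replicate 3, Day WT replicate 3 or Night DKO replicate 2, with adjusted p from 0.0617 to 0.0806, and with median-of-ratios scaling the difference was 0.14 (adjusted p = 0.116). Aida, which shares a start region with Brox on the opposite strand and 239 overlapping bases, was at 0.16 (adjusted p = 0.0901), and whether the counting used strand is not stated in the labels. Next in that comparison came Degs1 at 0.22 (adjusted p = 0.0509), Parp1 at 0.21 (adjusted p = 0.0536) and Fh1 (adjusted p = 0.0602), none past the threshold. Kif26b was at -0.17, lower at night, and also missed it (adjusted p = 0.0644).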

How the data were processed

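Total RNA of 12 samples was sequenced after removal of ribosomal RNA with a stranded TruSeq kit, per the labels' protocols. The tissue label reads brain and the series' design text names the hippocampus. The deposited values are FPKM per gene in 1 table per library, a unit read from the values, and the submitters' processing notes name build GRCm38.p6. The sources used here give no aligner, quantifier or read numbers. Read depth is thus unknown, which leaves values without counting intervals.

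Gene coordinates came from RefSeq on that build, matched by gene ID for 21727 of 21878 genes. Of the 42 genes, 41 matched by symbol and Tp53bp2 matched as Trp53bp2. The 12689 genes with at least 0.5 FPKM in at least 3 libraries were tested as log2(FPKM + 1), a scale that understates changes of low genes, with limma 3.58.1 in R 4.3.3 (1 mean per group, intensity trend). Each of 7 comparisons was tested 2-sided, with p-values adjusted by Benjamini and Hochberg's method over the whole table and calls made under 0.05. On simulated data for the averaged genotype comparison over 12689 genes, 98 of 100 genes changed by 1 and 93 of 100 changed by 0.5 on the log2 scale were recovered, with 9 unchanged genes called. The simulation held no smaller changes and no variation shared by the genes of a library. It does not show how often changes of the flanking genes' size, -0.27 to 0.15, would be recovered.

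The genes and lists were chosen with earlier results of these data known. Within the set, values per library are printed for genes called in any comparison and genes not overlapping between genotypes at both times. They are also printed for the 8 with the smallest averaged genotype p and the 3 of the set nearest Psen2 on each side, Ahctf1 as mean and SD. 1 item of the design is not reported here. Gap to Psen2 is the distance between gene ends. Alternatives were other pseudocounts, filters and scalings, only the groups compared, a replicate block, a choroid plexus covariate and each library left out.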

Additional observations from a re-analysis of the deposited data

How the results depend on the processing

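No call for a genotype difference at night, for the interaction or for night against day in DKO was made among the flanking genes in any setting run, and 0 genes within 5 Mb of Psen2 were called in the averaged comparison in any. The averaged genotype count of 1 was 0 with no filter, 0 with the choroid plexus covariate and 0 to 1 with a library left out. The day count of 0 was 0 to 1 with a library left out. The WT night count of 1 was 0 with a pseudocount of 0.1, no filter, median-of-ratios scaling, quantile normalization, only the groups compared, the replicate block or the choroid plexus covariate, and 0 to 2 with a library left out. Over all genes, the 212 WT night calls were 197, 64, 52, 72, 23, 144 and 250 in the 7 named settings, in that order. The night count averaged over genotypes, 2, was 1 with no filter, 4 with at least 1 FPKM in at least 6 libraries, 0 with the choroid plexus covariate and 1 to 4 with a library left out. The 3 genes not overlapping at both times were 1 with median-of-ratios scaling and 3 to 5 with a library left out. Leaving a library out cannot lower that count, so its range does not show how stable the count is. The 10 called genes 5 to 10 Mb below Psen2 were 2 with no filter, 5 with the choroid plexus covariate and 2 to 11 with a library left out. Calls over all genes in that comparison, 238 in the main fit, were 24 with no filter and 106 with the covariate. The median size of the averaged difference, 0.0497, ran from 0.0376 to 0.0628. The causes were not tested.

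Over all genes, 238 calls for genotype averaged over both times became 24 with no filter, 106 with the choroid plexus covariate and 302 with the replicate block, and 80 (without Night WT replicate 1) to 255 with a library left out. With a library left out, the 150 calls by day ran from 13 to 205, the 212 calls for night in WT from 1 to 213, and the 770 averaged over genotypes from 243 to 854, so the shares of all genes called that stand beside the flanking genes' counts move with single libraries. The 238 were split 127 higher and 111 lower, against 119 higher and 177 lower with median-of-ratios scaling. The labels tie libraries of different groups only by replicate number. Deviations from the group means correlated at -0.116 to 0.247 over 18 same-numbered pairs. In 23 of 36 combinations a library correlated best with its own number in another group, out of the 3 libraries there. What lies behind these matches was not tested, and the main fit leaves replicate number out. With the replicate block Fmn2 kept its call (adjusted p = 0.0412) and Parp1 lost its call in WT (adjusted p = 0.0554). Unknown read depth limits Exo1, Opn3, Lin9 and Disp1, the lowest expressed of the set.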
